A study of Mus musculus with 2 samples.

Results

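Interleukin-1 signalling was followed through 10 genes, taken from the 32286 features of the count tables by their symbols. These were the ligands Il1a, Il1b, Il18 and Il33, the receptor antagonist Il1rn, the signalling receptor Il1r1 with its accessory chain Il1rap, the decoy receptor Il1r2, and the processing genes Nlrp3 and Casp1. The lungs came from female BALB/c mice aged 9 to 10 weeks that had received, through a vein and over 3 weeks, either control media, abbreviated CM, or media conditioned by tumor, abbreviated TCM. Per the study's methods, the TCM was made by culturing pieces of 4T1 breast tumors without serum, media of several tumors were pooled, and the CM was the same medium kept without tumor. Each group was 1 droplet library, and the number of mice behind it is not given in the sources used here. No difference between CM and TCM could therefore be tested, and the intervals below are exact 95% intervals that cover counting error only. TCM stands for media from a tumor, not for a tumor-bearing lung.

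Interleukin-1 is an alarm cytokine system in which the ligands IL-1α and IL-1β bind IL-1R1, which then recruits IL-1RAP and signals to NF-κB. IL-1β and IL-18 are made as inactive precursors that caspase-1 cleaves once an inflammasome such as NLRP3 has assembled. Signalling is restrained by IL-1RA, the product of Il1rn, which occupies the receptor without signalling, and by IL-1R2, which binds the ligand and cannot signal. IL-33, kept in the nucleus of barrier and stromal cells, uses another receptor but the same accessory chain. Transcript counts cannot show cleavage or release of these proteins.

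Droplets with at least 500 UMIs, at least 200 genes and at most 10% mitochondrial UMIs were taken as cells, which left 7988 CM and 7707 TCM cells with medians of 2085 and 2346 UMIs. The libraries held 31944151 and 36648719 UMIs in all. Of the barcodes of these cells, 93 occurred in both libraries, where 83.5 would be shared if the libraries drew from the same barcode list independently. Cells were assigned to 29 classes by fixed markers that include none of the 10 genes, and a class is written with "-like" because it was rebuilt from markers. In 14 classes both libraries held at least 100 cells. Levels are given as UMIs per 100000 UMIs of the class (CP100k), and differences as log2 ratios of TCM over CM. Fewer cells of a class and less RNA per cell cannot be told apart in the sums over all cells.

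Neutrophils, the granulocytes that express both Il1b and Il1r2 in inflamed tissue, made up unequal shares of the libraries. Neutrophil-like cells were 3.24% (2.86 to 3.65%) of CM cells (259 cells) and 18.3% (17.5 to 19.2%) of TCM cells (1412 cells). All 16 markers of the neutrophil list were detected in these cells and 7 of them were among the 10 genes most raised over other cells, with no marker of another class. Neutrophil-like cells held 1.38% of all UMIs of CM cells and 8.64% of those of TCM cells.

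The bases before the start site of 4 genes are shown because these genes diverged in neutrophil-like cells, Il1b and Nlrp3 being lower in the TCM library and Il1r2 and Il1rap higher. RefSeq start sites were found for 10 of the 10 genes, and the start nearest the annotated gene start was used. The windows hold 250 bases on GRCm38.p6, written 5′ to 3′ on the strand of the gene, with searched motifs in capitals. They lie at chr2:129371140-129371389 (minus strand) for Il1b, chr11:59541319-59541568 for Nlrp3, chr1:40085843-40086092 for Il1r2 and chr16:26581455-26581704 for Il1rap, the last 3 on the plus strand.
Il1b: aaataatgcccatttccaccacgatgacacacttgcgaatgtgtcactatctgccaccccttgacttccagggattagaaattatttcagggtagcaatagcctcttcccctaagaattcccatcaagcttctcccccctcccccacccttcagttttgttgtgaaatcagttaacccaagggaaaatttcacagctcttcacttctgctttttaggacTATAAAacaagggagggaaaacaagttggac
Nlrp3: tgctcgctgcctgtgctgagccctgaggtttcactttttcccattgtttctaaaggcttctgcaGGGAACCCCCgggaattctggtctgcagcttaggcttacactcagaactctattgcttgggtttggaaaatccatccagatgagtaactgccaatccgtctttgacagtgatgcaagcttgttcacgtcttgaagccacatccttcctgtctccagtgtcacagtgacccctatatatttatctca
Il1r2: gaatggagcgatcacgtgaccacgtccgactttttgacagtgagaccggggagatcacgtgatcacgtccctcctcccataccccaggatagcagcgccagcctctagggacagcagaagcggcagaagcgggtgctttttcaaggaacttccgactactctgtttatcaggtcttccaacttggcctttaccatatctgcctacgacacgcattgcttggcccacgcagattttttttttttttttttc
Il1rap: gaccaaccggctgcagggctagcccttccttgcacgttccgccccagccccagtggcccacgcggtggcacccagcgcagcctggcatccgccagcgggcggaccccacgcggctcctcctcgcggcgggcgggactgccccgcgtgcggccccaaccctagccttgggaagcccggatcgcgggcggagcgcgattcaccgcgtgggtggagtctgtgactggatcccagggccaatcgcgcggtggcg
Both strands were searched for the TATA box (TATAAA), the AP-1 site (TGANTCA) and the NF-κB consensus. A TATA box stood 31 bases before the start of Il1b, and 12.4% of 32851 RefSeq windows of this length hold one. The capitals in the Nlrp3 window match the NF-κB consensus on the opposite strand, 186 bases before the start, and 3.90% of windows hold such a match. AP-1 sites, present in 6.75% of windows, and the other motifs had no match in the windows of Il1r2 and Il1rap. GC content was 44.4% before Il1b, 48.0% before Nlrp3, 51.2% before Il1r2 and 74.4% before Il1rap, against a median of 52.4% over all windows. The start used for Il1r2 lies 12014 bases inside the annotated gene, whose span begins at another start.

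Summed over all cells, Il1b, Il1r2, Il1rap, Il1rn and Nlrp3 were each at least 2-fold higher in the TCM library. Il1b stood at 35.4 CP100k (9164 UMIs) in CM and 103 CP100k (27815 UMIs) in TCM. The decoy Il1r2 went from 4.18 to 36.2 CP100k, a ratio of 8.66-fold, the accessory chain Il1rap from 0.872 to 5.08, the antagonist Il1rn from 2.12 to 9.18 and Nlrp3 from 2.43 to 6.57. The remaining 5 genes stayed within 2-fold, with log2 ratios between -0.18 for Il1r1 and Il33 and 0.41 for Casp1. Thus 5 of 10 genes were at least 2-fold higher and 0 at least 2-fold lower, where 3.07% of all 16095 genes with at least 20 UMIs were higher and 2.08% lower. Those 5 genes have in common that neutrophil-like cells held most of their UMIs in TCM: 72.5% for Il1b, 85.2% for Il1r2, 78.3% for Il1rn, 74.3% for Il1rap and 68.2% for Nlrp3. In CM the same class held 52.9%, 76.5%, 48.1%, 16.8% and 45.5% of them.

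**Figure D1:**
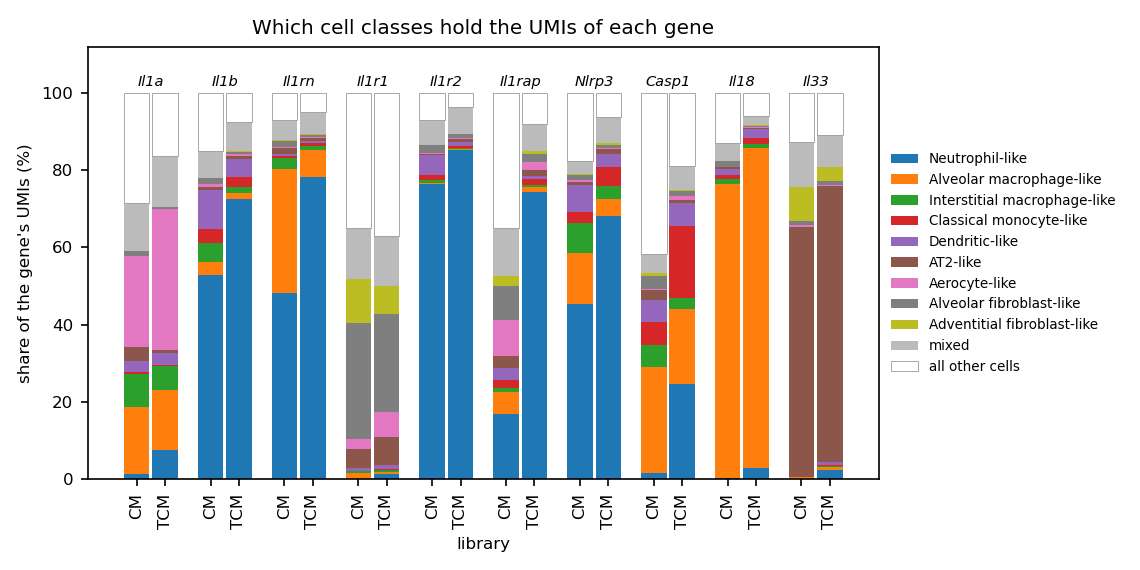
Share of each gene's UMIs (percent, y axis) that lay in each cell class, for the CM and the TCM library (x axis, paired bars per gene). Neutrophil-like cells, blue, hold 52.9% of Il1b UMIs in CM and 72.5% in TCM, while alveolar macrophage-like cells, orange, hold most of Il18 and AT2-like cells, brown, most of Il33.

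The levels within classes show that the sums over all cells and the levels per class do not run in parallel. Had every class kept its CM level while holding its TCM share of UMIs, Il1b would have stood at 135 CP100k over all cells, above the 103 observed in TCM. For Nlrp3 the same calculation gave 8.27 against 6.57 observed. Il1rap was the opposite case, at 1.65 CP100k with CM levels and TCM shares against 5.08 observed. Il1r2 lay between, at 21.0 against 36.2, as did Il1rn at 7.54 against 9.18.

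**Figure D2:**
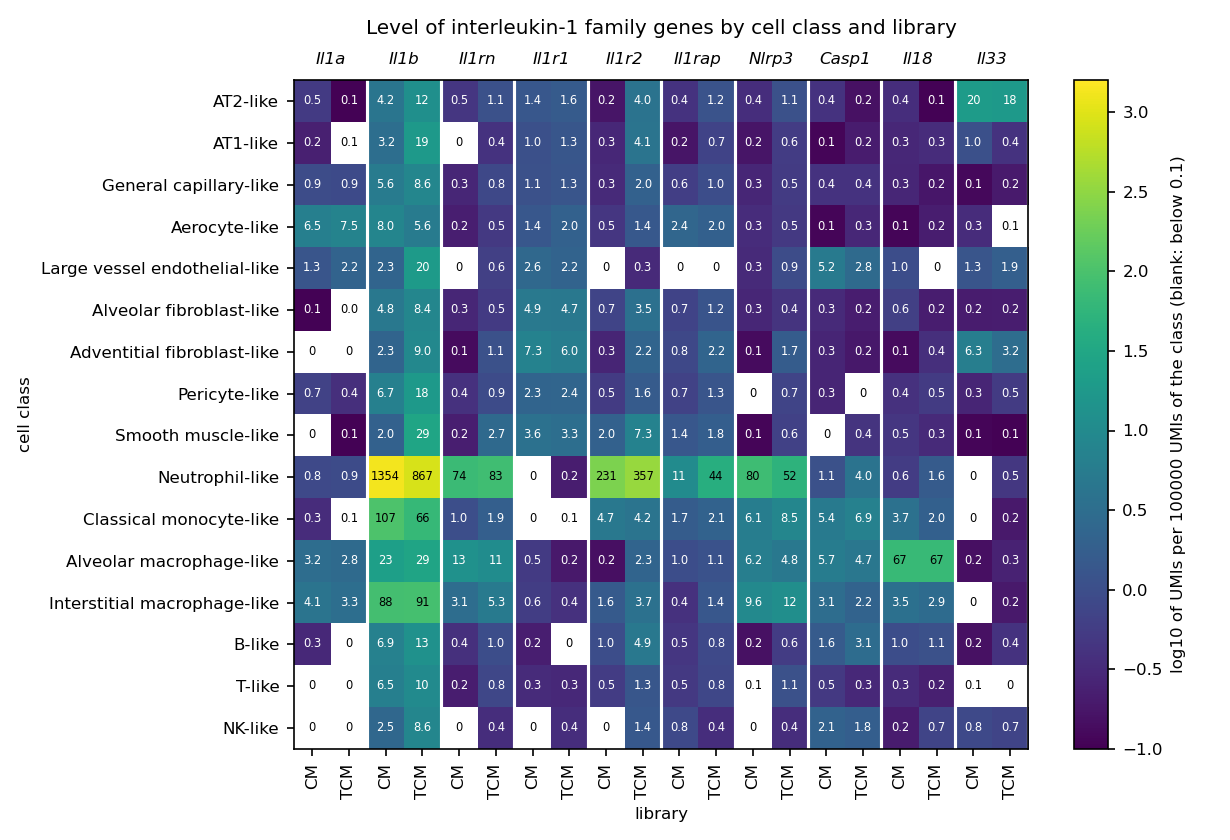
Level of each of the 10 genes (columns, one per library) in the 16 classes with at least 100 cells in either library (rows). Colour gives log10 of UMIs per 100000 UMIs and the printed value the level itself, such as 1354 for Il1b in CM and 867 in TCM neutrophil-like cells.

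Il1b, the main secreted ligand of the system, was lower per neutrophil-like cell in TCM although the library held more of it. Neutrophil-like cells carried 4852 Il1b UMIs in CM and 20163 in TCM, or 1354 CP100k (interval 1316 to 1392) and 867 CP100k (855 to 879). The log2 ratio was -0.64 (-0.69 to -0.60), or 1.56-fold lower in TCM, and the intervals of the levels did not overlap. Counted per cell without scaling, there were 18.7 Il1b UMIs in CM and 14.3 in TCM, even though the TCM cells were deeper (median of 1526.5 against 1192 UMIs). After thinning each cell to 1000 UMIs, which kept 169 CM and 1086 TCM cells, the median was 14 Il1b UMIs per cell in CM and 7 in TCM. At least 10 Il1b UMIs were found in 64.5% of these cells in CM and in 37.0% in TCM. Nearly every cell had at least 1, namely 93.9% (89.4 to 97.1%) in CM and 97.1% (96.0 to 98.1%) in TCM. In B-like cells, a class that should lack Il1b, the thinned shares were 2.38% in CM and 5.23% in TCM, at median depths of 1917 and 1857 UMIs. The lower level in TCM was therefore seen in how many UMIs a cell held and not in how many cells held any. The median log2 ratio over all genes tested in this class was -0.27.

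**Figure D3:**
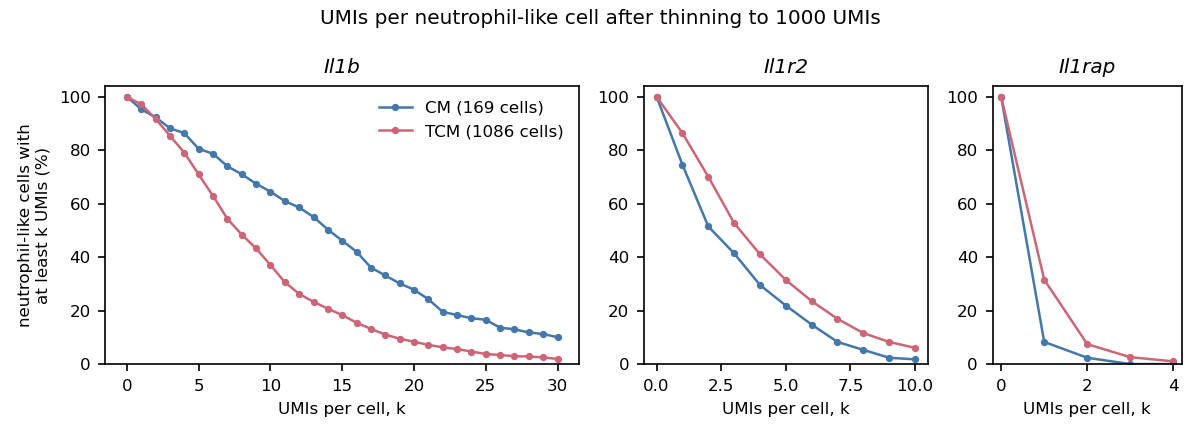
Share of neutrophil-like cells (percent, y axis) that held at least k UMIs (x axis) of Il1b, Il1r2 or Il1rap after each cell was thinned to 1000 UMIs, with 169 CM cells in blue and 1086 TCM cells in red. The TCM curve lies below the CM curve for Il1b from 2 UMIs on and above it for Il1r2 and Il1rap.

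Granule genes of immature granulocytes were not equally frequent in the libraries. Of the 259 CM cells, 17 held at least 2 UMIs of Camp, Ltf or Ngp, which are also on the marker list, as did 24 of the 1412 TCM cells. Without them, a step chosen after the values were seen, the log2 ratio was -0.84 for Il1b, -0.82 for Nlrp3, 0.42 for Il1r2 and -0.04 for Il1rn. The directions of Il1b, Nlrp3 and Il1r2 were kept, and that of Il1rn, whose interval already spanned 0, was not.

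Il1rn, which encodes the receptor antagonist, did not differ beyond counting error between neutrophil-like cells of the libraries. It stood at 73.7 CP100k (264 UMIs) in CM and 83.1 CP100k (1933 UMIs) in TCM, and the log2 ratio of 0.17 had an interval that spans no difference (-0.01 to 0.36). Relative to the ligand the antagonist was higher in TCM, with 5.44 Il1rn UMIs per 100 Il1b UMIs in CM and 9.59 in TCM. The log2 ratio of that quotient was 0.82 (0.63 to 1.01).

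Il1r2, the decoy receptor, was higher in TCM neutrophil-like cells, at 231 CP100k (829 UMIs) in CM and 357 CP100k (8305 UMIs) in TCM. The log2 ratio was 0.63 (0.52 to 0.73). After thinning, 74.4% (67.3 to 80.9%) of CM and 87.1% (84.9 to 89.0%) of TCM cells held an Il1r2 UMI. Per 100 Il1b UMIs there were 17.1 of Il1r2 in CM and 41.2 in TCM, with a log2 ratio of 1.27 (1.17 to 1.37). Il1b and Il1r2 were found together in 72.8% of thinned CM cells and 83.9% of thinned TCM cells, shares close to that of Il1r2 itself, Il1b being in nearly every cell. In TCM Il1r2 was in 86.4% of the cells with Il1b and in 87.1% of the 31 cells without it, and in CM in 76.4% and in 37.5% of 8 cells.

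Il1rap showed the largest log2 ratio of the 10 genes in this class. The accessory chain was at 10.6 CP100k (38 UMIs) in CM and 43.7 CP100k (1016 UMIs) in TCM, with a log2 ratio of 2.04 (1.58 to 2.55) or 4.12-fold. Cells with a UMI made up 9.25% (5.51 to 14.9%) in CM and 31.7% (28.9 to 34.5%) in TCM after thinning. In B-like cells, used as a class that should lack these transcripts, 0.300% of CM and 0.828% of TCM cells held an Il1rap UMI. The signalling receptor Il1r1 was found in 0 of 259 cells in CM, which allows a share of up to 1.16% of cells with a UMI, and in 3 of 1412 cells in TCM. The accessory chain was thus found in a class that held the decoy and hardly any Il1r1. Il1r2 and Il1rap were found together in 5.33% of thinned CM cells and 28.4% of thinned TCM cells. In TCM Il1rap was in 32.8% of the cells with Il1r2 and in 23.6% of the 148 cells without it. In CM it was in 7.14% of the cells with Il1r2 and in 11.6% of the 43 cells without it. The CM shares rest on few cells, since only 9 held both genes.

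Nlrp3, the sensor of the best known inflammasome, followed Il1b. It was at 79.8 CP100k (286 UMIs) in CM and 51.8 CP100k (1206 UMIs) in TCM, with a log2 ratio of -0.62 (-0.81 to -0.43). Per 100 Il1b UMIs there were 5.89 Nlrp3 UMIs in CM and 5.98 in TCM, with a log2 ratio of 0.02 (-0.17 to 0.21). Casp1, the protease that cleaves the IL-1β and IL-18 precursors, was scarce in neutrophil-like cells, with 4 UMIs in CM and 93 in TCM (1.12 and 4.0 CP100k, log2 ratio 1.84, 0.44 to 3.75). Il18 had 2 and 37 UMIs with an interval that includes no difference (-0.44 to 4.61), and Il1a had 3 and 21.

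Of the 8 members with at least 20 UMIs in neutrophil-like cells, 3 were at least 2-fold higher in TCM (Il1rap, Casp1 and Il18) and 0 at least 2-fold lower. Over all 5953 genes tested in the class 6.72% were higher and 15.6% lower by that rule. Casp1 and Il18 rest on 4 and 2 CM UMIs.

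**Figure D4:**
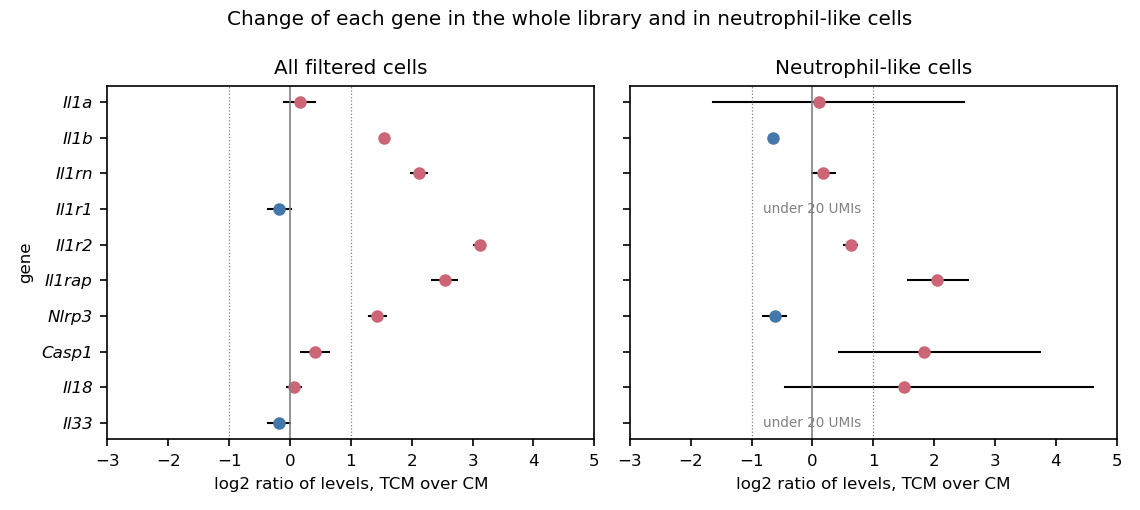
Log2 ratio of TCM over CM (x axis) of each gene (y axis) over all filtered cells, left, and within neutrophil-like cells, right. Points are ratios and lines exact 95% intervals for counting error. Il1b and Nlrp3 lie at 1.55 and 1.44 on the left and at -0.64 and -0.62 on the right.

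Elsewhere in the lung the ligands were spread over distinct cell types. Il18 belonged to alveolar macrophage-like cells, the resident phagocytes of the air space, which held 76.2% of its UMIs in CM and 82.8% in TCM. Its level there was 67.4 CP100k (895 UMIs) in CM and 67.4 CP100k (1062 UMIs) in TCM, with a log2 ratio of 0.00 (-0.13 to 0.13). Thinned cells with an Il18 UMI made up 46.1% and 46.4%.

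Il33 was found mainly in AT2-like cells, the surfactant-making epithelium, at 20.2 CP100k (346 UMIs) in CM and 18.3 CP100k (351 UMIs) in TCM (log2 ratio -0.15, -0.37 to 0.07). Adventitial fibroblast-like cells, which surround vessels and airways, had 6.33 CP100k (47 UMIs) in CM and 3.18 CP100k (17 UMIs) in TCM, with a log2 ratio of -0.99 (-1.89 to -0.17). In that class 10 cells held 80.9% of the CM UMIs and all TCM UMIs were in 10 cells at most. AT1-like cells had 18 and 6 Il33 UMIs.

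Il1a, the ligand that is active without cleavage by caspase-1, was highest in aerocyte-like cells, the capillary cells of gas exchange, at 6.52 CP100k (57 UMIs) in CM and 7.46 CP100k (103 UMIs) in TCM. The log2 ratio was 0.20 (-0.29 to 0.69). Interstitial macrophage-like cells had 4.10 and 3.33 CP100k and alveolar macrophage-like cells 3.16 and 2.79 CP100k, with intervals of the log2 ratio that include no difference in both. General capillary-like cells, the other capillary type, had 0.936 and 0.863 CP100k.

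Il1r1, the receptor through which IL-1α and IL-1β signal, was highest in fibroblast-like cells among the classes of at least 100 cells. Adventitial fibroblast-like cells had 7.27 CP100k in CM and 5.98 in TCM, alveolar fibroblast-like cells 4.93 and 4.74 and smooth muscle-like cells 3.64 and 3.32. AT2-like, AT1-like, general capillary-like and aerocyte-like cells had between 1.04 and 2.03 CP100k. The log2 ratios in the 8 classes with at least 20 UMIs lay within 2-fold in every class, with a median of 0.12.

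Mononuclear phagocytes carried Il1b at lower levels than neutrophil-like cells and not with a common direction. Interstitial macrophage-like cells were at 88.4 CP100k (453 UMIs) in CM and 90.9 CP100k (464 UMIs) in TCM, and alveolar macrophage-like cells at 23.3 and 28.9 CP100k (log2 ratio 0.31, 0.10 to 0.52). Classical monocyte-like cells, 60 in CM and 195 in TCM, had 107 CP100k in CM and 65.9 in TCM, with a log2 ratio of -0.70 (-0.90 to -0.50), with 73.6% of the CM UMIs in 10 cells. Their neutrophil list level was 74.8 CP100k in CM and 148 in TCM, and 32 of their 60 cells in CM and 142 of 195 in TCM held at least 2 neutrophil markers besides S100a8 and S100a9. Without those cells, which had 84.3% of the CM and 83.1% of the TCM Il1b UMIs, the levels were 58.9 and 58.1 CP100k and the ratio -0.02 (-0.51 to 0.49). With all cells kept, classical monocyte-like cells held 143 (CM) and 44.4 (TCM) Il1b UMIs per 100 UMIs of the neutrophil list. Neutrophil-like cells held 9.37 and 4.83. Whether the cells left out carried neutrophil RNA was not tested. Il1rn in alveolar macrophage-like cells was at 13.3 CP100k (177 UMIs) in CM and 11.1 CP100k (174 UMIs) in TCM (log2 ratio -0.27, -0.58 to 0.04). Casp1 was at 5.72 and 4.70 CP100k in alveolar macrophage-like cells and at 5.39 and 6.94 CP100k in classical monocyte-like cells. Nlrp3 was at 9.56 and 11.7 CP100k in interstitial macrophage-like cells and at 6.25 and 4.83 CP100k in alveolar macrophage-like cells.

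In the 13 classes other than neutrophil-like cells, 62 pairs of gene and class had at least 20 UMIs, of which 21 were at least 2-fold higher in TCM and 2 at least 2-fold lower. The share over all genes in these classes was 2.54% higher and 2.24% lower. Il1r2 made up 10 of the 21, Il1b 6, Il1rn 3, Il1rap 1 and Nlrp3 1, while the 2 lower were Il18 in alveolar fibroblast-like cells (18 and 5 UMIs) and Il33 in AT1-like cells. Il1b and Il1r2 are also the members with the most UMIs in neutrophil-like cells. The widest ratios were in smooth muscle-like cells for Il1b, at 2.05 CP100k (18 UMIs) in CM and 28.9 CP100k (270 UMIs) in TCM, and in AT2-like cells for Il1r2, at 0.175 CP100k (3 UMIs) and 4.01 CP100k (77 UMIs).

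Neutrophil markers were read beside these values. The summed level of the 16-gene neutrophil list was higher in TCM in all 13 classes. It ranged from 4.17 CP100k in adventitial fibroblast-like to 38.6 CP100k in B-like cells in CM, and from 60.3 CP100k in pericyte-like to 286 CP100k in smooth muscle-like cells in TCM. Between 10 and 15 of the 16 genes were detected in TCM in these classes, with Ngp, Camp and Ltf most often at 0, and in neutrophil-like cells the list stood at 14448 CP100k in CM and 17927 CP100k in TCM. Of the Il1b UMIs in smooth muscle-like TCM cells, 86.3% were in 10 cells, and in AT1-like, AT2-like, pericyte-like, B-like, T-like and NK-like cells 10 cells held at least 60.2%. Free RNA, read from droplets of at most 50 UMIs, held 36.4 CP100k of Il1b in CM and 105 in TCM, and 4.02 and 16.7 CP100k of Il1r2. A filtered cell held an estimated 0.0455 Il1b UMIs of free RNA in CM and 0.252 in TCM.

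The levels were then taken without cells that held at least 2 neutrophil markers besides S100a8 and S100a9, a step chosen after the values were seen. It left out 14 of 183 smooth muscle-like TCM cells and 55 of 377 AT2-like TCM cells. Il1b in AT2-like cells was then at 4.13 CP100k in CM and 3.29 in TCM, with a log2 ratio of -0.33 against 1.55 with all cells. In adventitial fibroblast-like cells the ratio was -0.12 against 1.97, and in alveolar fibroblast-like cells -0.29 (-0.78 to 0.18) against 0.82, from 3.39 to 2.76 CP100k. In aerocyte-like cells the ratio was -0.93 (-1.63 to -0.23) against -0.52. In smooth muscle-like cells it was 2.16 (0.94 to 3.59), from 0.800 to 3.57 CP100k, in AT1-like cells 1.74 (1.16 to 2.35), in pericyte-like cells 1.52 (0.52 to 2.6), in T-like cells 1.85 (1.16 to 2.58), in B-like cells 1.41 (0.67 to 2.16) and in NK-like cells 1.1 (-0.12 to 2.34). Among the 13 classes, those other than macrophage-like cells were then at 6.98 CP100k of Il1b or below in TCM. Il1r2 was at most 1.43 CP100k in any of the 13 classes in TCM. It was at least 2-fold higher than in CM in 4 of the 9 classes with a value. Among the 9, the value in AT2-like cells was only a bound, from 0 UMIs in CM and 5 in TCM. The share over all genes was not taken under this setting, so the count has no background. In general capillary-like cells the Il1r2 ratio was 3.24 (1.57 to 5.59), from 3 and 34 UMIs, against 2.68 with all cells. In B-like cells it was 2.63 (0.67 to 5.13), from 3 and 10 UMIs. The other classes past 2-fold were AT1-like (3 and 6 UMIs) and T-like (3 and 7 UMIs), with intervals that include no difference. What remained in TCM was 61 Il1b UMIs in T-like, 40 in B-like and 27 in pericyte-like cells. With all cells, these classes held 0.238, 0.271 and 0.460 Il1b UMIs per cell in TCM and 0.166, 0.136 and 0.179 in CM. Free RNA was estimated at 0.252 Il1b UMIs per cell in TCM and 0.0455 in CM. The part of neutrophils stuck to or captured with other cells, or of free RNA, in what remained was not tested.

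**Figure D5:**
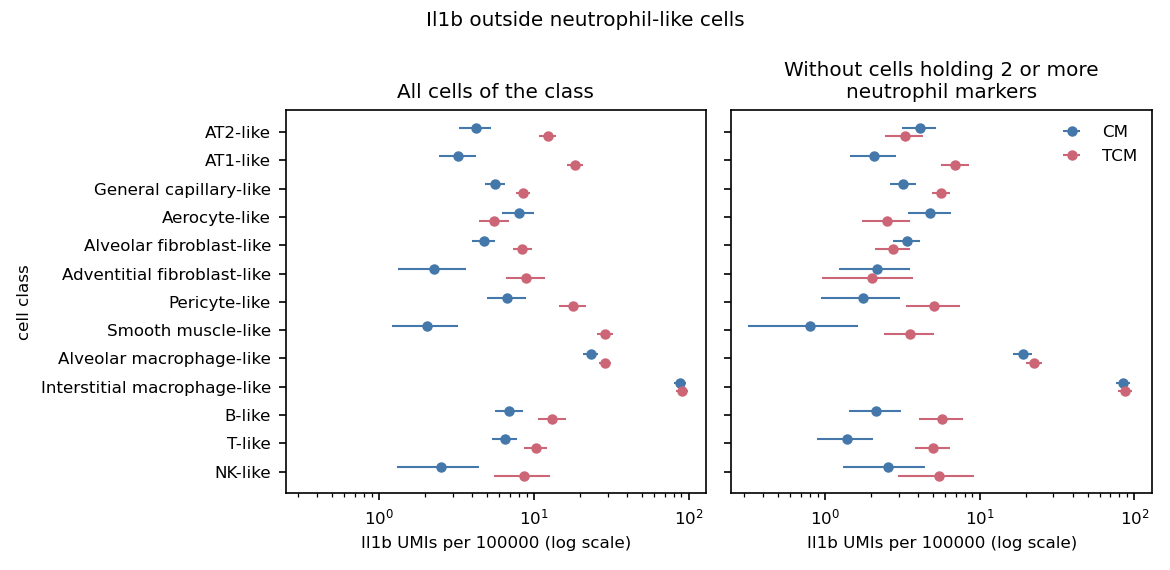
Il1b level (UMIs per 100000, log axis) in the 13 classes other than neutrophil-like cells (y axis), CM in blue and TCM in red, with all cells, left, and without cells that held 2 or more neutrophil markers, right. Lines are exact 95% Poisson intervals. In AT2-like, alveolar fibroblast-like and adventitial fibroblast-like cells TCM lies above CM on the left and not on the right.

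The wider pathway was read from a list of 53 genes, of which 35 had at least 20 UMIs in neutrophil-like cells. By the 2-fold rule 4 were higher and 4 lower in TCM, beside 6.72% higher and 15.6% lower over all genes of the class, and the median log2 ratio of -0.31 lay near that of all genes (-0.27). Those higher were Casp4, which senses bacterial lipopolysaccharide in the cytosol (17 and 480 UMIs, log2 ratio 2.12, 1.43 to 2.91), Il18bp, which neutralises IL-18 (4 and 87 UMIs, 1.74), the IL-18 receptor chain Il18r1 (1 and 22 UMIs, 1.76) and the kinase Irak4 (7 and 116 UMIs, 1.35). The interval of Il18r1 includes no difference. Those lower were Tnfaip3, a brake on NF-κB (139 and 361 UMIs, -1.32, -1.61 to -1.03), the cytokine Tnf (17 and 51 UMIs, -1.11), Nek7, a partner of NLRP3 (13 and 36 UMIs, -1.23), and the DNA sensor Aim2 (6 and 17 UMIs, -1.20, with an interval that includes no difference).

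Among the 15 listed genes of NF-κB response and feedback, 13 were tested in neutrophil-like cells, 0 were at least 2-fold higher and 2 at least 2-fold lower, with a median log2 ratio of -0.44. Over all genes of the class 15.6% were lower, so the count is near that share. Nfkbia, the inhibitor that NF-κB induces, was at 271 CP100k in CM and 173 in TCM (-0.65, -0.75 to -0.54). The chemokine gene Cxcl2 was at 1162 and 879 CP100k (-0.40, -0.45 to -0.35) and Ptgs2, which makes prostaglandins, at 49.7 and 30.3 CP100k (-0.71, -0.95 to -0.47). Over all cells 47 of the 53 genes were tested, and 5 were higher and 1 lower, beside 3.07% and 2.08% of all genes. The 5 were Il36g, listed as Il1f9 in the files (2.76), Cxcl2 (1.73), Casp4 (1.38), Prtn3 (1.36) and Ptgs2 (1.18), and the 1 lower was the granule protease Ctsg (-3.55, 45 and 4 UMIs). Cxcl2 and Ptgs2 were thus, like Il1b, higher over all cells and lower within neutrophil-like cells. The median over all genes of that class was itself -0.27, near the -0.40 of Cxcl2. Nfkbia, Cxcl2 and Ptgs2 were picked from the NF-κB group after their values were seen.

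The genes closest in pattern were found by Pearson correlation of log2 levels over 28 sums, the 14 classes in each library, which share libraries, free RNA and depth and are given as a description. Il1b was nearest to Lst1 (r = 0.963), Gm5150 (0.952) and Cd33 (0.947). Il1r2 was nearest to Asprv1 (0.966), Cstdc5 (0.960) and Acod1 (0.959), and Il1rap to Mirt2 (0.935), Cstdc4 (0.933) and Tarm1 (0.930). Il1rn was nearest to Clec4e (0.981), Nlrp3 to Siglece (0.973), Casp1 to Pik3ap1 (0.929) and Il18 to Tfec (0.984). Il33 was nearest to Tspan11 (0.935), Il1r1 to Gpx7 (0.960) and Il1a to Zfp710 (0.864).

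On GRCm38 with the GENCODE vM21 annotation, Il1a (chr2:129299610-129309972), Il1b (chr2:129364570-129371139) and Il1rn (chr2:24336853-24351494) lie on chromosome 2, and Il1r2 (chr1:40074079-40125231) and Il1r1 (chr1:40225080-40317257) on chromosome 1. Casp1 (chr9:5298517-5307265) and Il18 (chr9:50554827-50581840) lie on chromosome 9, Il1rap at chr16:26581704-26730117, Nlrp3 at chr11:59541568-59566956 and Il33 at chr19:29925114-29960718. All 10 are annotated as protein coding. Neighbours did not share a direction, since Il1r2 was 8.66-fold higher over all cells and Il1r1 was not (log2 ratio -0.18, -0.37 to 0.01).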

How the data were processed

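Single-cell suspensions of lung were made into 1 droplet library per group with a 5′ kit of 10x Genomics, and per the study's methods and the submitters' processing notes the authors mapped reads with Cell Ranger to mm10 (GRCm38.p6). The deposited matrices hold raw UMI counts per gene and barcode for all 737280 barcodes, unfiltered and not normalized. The study also names Seurat, whose output was not used here. Cells passed the study's thresholds of 500 UMIs, 200 genes and 10% mitochondrial UMIs.

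A cell needed at least 3 distinct markers of a class, at least 2 more than free RNA would give, and joined the class with the highest mean scaled marker level. Cells that passed gates of different compartments were called mixed (639 in CM, 517 in TCM) and left out as possible doublets, and no doublet caller was run. Counts were summed per class and library and divided by the class total. Intervals were exact Poisson for levels, Clopper-Pearson for shares and conditional binomial for ratios. They cover counting error between 2 libraries, not between mice. A ratio needed 20 UMIs in both libraries together with all cells of the class kept. That minimum was not applied again after cells were left out, so some of those ratios rest on fewer UMIs. Shares of cells were computed as the expected share when each cell is thinned to 1000 UMIs, and the UMIs per cell came from 1 random thinning. Free RNA per cell was estimated from 7 genes of red cells and airway secretory cells. All 10 genes were described in each class with at least 100 cells in either library. From the pathway list those past 2-fold were named, with some of the NF-κB group chosen after their values were seen, and for each of the 10 genes up to 3 alike in pattern. The genes, classes and lists were chosen with earlier results of these data known. The calculation of ratios and intervals was checked on simulated independent Poisson counts, the model that the intervals assume. That check cannot show how the intervals behave where few cells hold most UMIs of a gene. Python 3.11.15, NumPy 2.4.6, SciPy 1.17.1 and pandas 2.3.3 were used. Alternatives covered filters, gate, mixed cells, free RNA, thinning and scaling, and 3 were added after the data were seen.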

Additional observations from a re-analysis of the deposited data

Results flagged for a closer look

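Il1b was lower in TCM in 2 of 14 classes by intervals below 0 and higher in 11 by intervals above 0. The lower classes were neutrophil-like cells (log2 ratio -0.64) and aerocyte-like cells (log2 ratio -0.52, -1.01 to -0.03, and 0.14 with mixed cells kept), and the highest ratio was 3.82 in smooth muscle-like cells. Without cells of 2 or more neutrophil markers the ratio in aerocyte-like cells was -0.93 (-1.63 to -0.23). Nlrp3 was lower in neutrophil-like cells (log2 ratio -0.62) and higher in AT2-like cells (1.64, from 6 and 21 UMIs). The neutrophil list in AT2-like cells was at 33.1 CP100k in CM and 144 in TCM, and the part of neutrophil RNA in their Nlrp3 level was not tested. With 1 library per group these differences between classes were not tested.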

How the results depend on the processing

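The 92 log2 ratios gave 981 alternative values, of which 52 changed sign, 39 of these where the reported interval already included 0. For 11 further values a library had no UMIs left. The other 13 sign changes, and that of Il1r2 in interstitial macrophage-like cells, were as follows. Those of Il1b without cells of 2 or more neutrophil markers were to -0.33 in AT2-like, -0.12 in adventitial fibroblast-like and -0.29 in alveolar fibroblast-like cells, and that of Il1r2 in interstitial macrophage-like cells was to -0.88. With free RNA subtracted Il1b went to -2.76 in general capillary-like, -0.63 in alveolar fibroblast-like and -2.36 in B-like cells. As a mean over cells it went to -0.54 in alveolar fibroblast-like, -0.06 in alveolar macrophage-like, -0.34 in T-like and -0.01 in dendritic-like cells, and Il1r2 in smooth muscle-like cells to -0.48. Il1b also went to -0.02 in dendritic-like cells when thinned and to 0.14 in aerocyte-like cells with mixed cells kept. For Il1b in neutrophil-like cells the ratio was -0.55 with free RNA subtracted, -0.56 when scaled without the 32 genes over 1% of UMIs, -0.72 thinned to 1000 UMIs, and -0.84 without cells of Camp, Ltf or Ngp. Without those cells it was -0.82 for Nlrp3, -0.037 for Il1rn and 0.42 for Il1r2, which was 0.50 when thinned. Il1rap in neutrophil-like cells ranged from 1.84 to 2.15 over the alternatives. Over all cells Il1b was at 1.62 with a minimum of 1000 UMIs and 1.62 thinned. It was at 1.67 without those cells outside the neutrophil-like class that held 2 or more neutrophil markers. Neutrophil-like cells themselves stayed in that sum. The median over all genes in neutrophil-like cells went from -0.28 to -0.42 with free RNA subtracted.

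In the other classes the count of 21 at least 2-fold higher was 10 with a minimum of 50 UMIs and 11 without cells of neutrophil markers, and the count of 2 lower was 0 with a minimum of 50 UMIs and 7 with free RNA subtracted. Fewer pairs were tested with a minimum of 50 UMIs. The share over all genes was not taken under these settings, so these counts have no background beside them. In neutrophil-like cells 2 of the 8 genes with at least 20 UMIs were lower at a 1.5-fold threshold, and Il1r2, at 1.54-fold, was higher by it. The share over all genes was taken only at 2-fold, where it was 15.6% lower and 6.72% higher, so the 1.5-fold count has no background. With a minimum of 50 UMIs 2 pathway genes were lower, against 4. The share of Il1b UMIs in neutrophil-like cells was 54.5% in CM with a stricter gate, and 54.1% in CM and 74.95% in TCM with mixed cells kept. The cause of these shifts was not tested.

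No paired analysis was possible because each group has 1 library. For the same reason no library was left out, and differences between mice, batches and libraries cannot be told apart from TCM. Genes with few UMIs per class, such as Il1a, Casp1 and Il18 in neutrophil-like cells, are limited by counting error.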

Other observations

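Classes of under 100 cells in each library, described here after their values were seen, also held interleukin-1 transcripts. Dendritic-like cells (81 in CM, 89 in TCM) had Il1b at 149 CP100k (933 UMIs) in CM and 180 CP100k (1332 UMIs) in TCM, a log2 ratio of 0.28 (0.16 to 0.40), which was -0.02 when thinned to 1000 UMIs. Their Il1r2 level was 8.92 CP100k in CM and 16.6 in TCM. Without the 5 CM and 10 TCM dendritic-like cells of 2 or more neutrophil markers, Il1b was at 149 and 166 CP100k (0.15, 0.02 to 0.29) and Il1r2 at 9.25 and 14.2 CP100k. Non-classical monocyte-like cells (67 and 42) had Il1b at 126 and 222 CP100k, a log2 ratio of 0.82 (0.58 to 1.06). Basophil- or mast-like cells (17 and 14) had 324 and 446 CP100k of Il1b and 60.7 and 73.8 CP100k of Nlrp3. Mesothelial-like cells (43 and 25), which line the lung surface, had 13.3 and 16.5 CP100k of Il18 and 8.0 and 11.2 CP100k of Il33. Ciliated cell-like cells (55 and 43) had Il1r1 at 3.91 and 4.55 CP100k. Cells left out as mixed (639 and 517) had Il1b at 18.5 CP100k in CM and 63.4 in TCM. The neutrophil list was at 19.0 and 88.8 CP100k in dendritic-like cells and at 84.8 and 269 CP100k in non-classical monocyte-like cells, and its part in the Il1b level of the non-classical monocyte-like cells was not tested.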
